A study of Mus musculus with 7 samples.

Results

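The 36 genes described here encode mostly surface and matrix proteins that are known from oligodendrocyte precursor cells. They were read from a table of normalised expression in microglia sorted from mouse brains with glioma. The members were taken as the rows whose first symbol, or an alias of it, stood on a list of 36 names, and all 36 of 36 names were found among 24537 rows. A row was tested where its FPKM (fragments scaled to transcript length and library size) was 1 or more in 2 or more of the 7 libraries, which left 35 of 36 members and 13028 rows in all. The list was drawn up from these same libraries, so its members were chosen by measured values. The differences in FPKM between groups had selected some of them: 7 members had stood out for their fall in the comparison of anti-CTLA4 with IgG, and 3 for their rise in the comparison of CD4 depletion with anti-CTLA4. For those members in those comparisons the values are a description with no p-value. The filter itself split few members closely: Luzp2 reached 1 FPKM in 0 libraries and was not tested, while Matn4, Dscam and Opcml were just inside, with 3 libraries each. For Matn4 these were the 3 depletion libraries.

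Microglia, the resident macrophages of the brain, had been sorted as cells with intermediate CD45 that carried the chemokine receptor CX3CR1. All animals were C57BL/6 mice bearing the 005 glioma, a mouse glioblastoma line implanted in the brain, and were studied at day 35. Control IgG was given for 2 libraries and an antibody to CTLA4, a receptor that restrains T cells, for another 2. The remaining 3 libraries came from animals that received this antibody together with depletion of CD4 cells. The age and sex of the mice, and whether cells of several mice were pooled, are not given in the sources used here. Nothing in the labels says that the libraries of a group came from separate animals, so the spread behind each p-value is that between libraries and may be purely technical. The labels and the file header differ on one point. The columns named for anti-CTLA4 carry sheet numbers 29 and 30, which the command in the header gives to libraries named MIFNGRKO1 and MIFNGRKO2, whereas the sample descriptions give 10 and 11. These columns are called the libraries labelled anti-CTLA4 throughout, and each direction drawn from them depends on that label.

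Oligodendrocyte precursors are glial cells spread through the whole brain that keep dividing in adults and give rise to myelinating oligodendrocytes. They are recognised by PDGFRA, the receptor through which PDGF-A drives their division, and by the proteoglycan NG2, the product of Cspg4. Proteoglycans of this lineage carry chondroitin sulfate chains and, together with tenascins and hyaluronan, form much of the matrix between brain cells. Many of the same genes are active in gliomas, and several are shared with other cells: Pdgfra with fibroblasts, Cspg4 with pericytes, Vcan with monocytes, and Fabp7 and S100b with astrocytes. Of the 35 members tested, 7 (Fabp7, S100b, Sox6, Rlbp1, Neu4, Bcas1 and Car3) were grouped as encoding proteins that act inside the cell. The other 28 were grouped with the surface and matrix genes. They include Xylt1, an enzyme of chain synthesis, and Dll3, which acts mainly inside the cell that makes it.

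The libraries held between 83820000 and 107240000 implied reads, and 15 of 15 homeostatic microglia markers reached 1 FPKM in each of them, with summed levels from 6809 to 26663 FPKM. The first depletion library stood apart. Its monocyte markers (Chil3, Fn1, S100a8, S100a9 and others, without Vcan) summed to 1497 FPKM, against 26.5 to 102 FPKM in the other 6 libraries. Fibroblast and meningeal markers (Apod, Dcn, Col3a1 and others, without Pdgfra) summed to 697 and 326 FPKM in the libraries labelled anti-CTLA4, to 235, 108 and 48.1 FPKM in the depletion libraries and to 22.2 and 45.5 FPKM in the IgG libraries. The Y-linked gene Eif2s3y was at 4.34 to 6.86 FPKM in the depletion libraries and at 0.335 to 1.06 FPKM in the other 4. Xist, expressed from the inactive X chromosome, was at 2.42 to 3.42 FPKM with depletion and at 2.16 and 2.48 FPKM with IgG. In the libraries labelled anti-CTLA4 it was higher than with depletion or IgG, at 3.85 and 6.08 FPKM. Against IgG its log2 difference was 0.82 (limma adjusted p = 0.0358). What these sex-linked differences contributed to the comparisons between groups was not tested. In sorted cells measured in bulk, fewer cells of a type and less RNA per cell cannot be told apart either.

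Across the 7 libraries the members were highest with IgG, lowest in the libraries labelled anti-CTLA4, and in between with CD4 depletion. Set against each member's own IgG mean, the median over the 35 members was 93.2% and 107% in the IgG libraries. It was 12.9% and 5.37% in the libraries labelled anti-CTLA4, and 24.7%, 76.3% and 60.3% in depletion libraries 1, 2 and 3. The lowest of the 7 values came from a library labelled anti-CTLA4 for 33 of 35 members, and the highest came from an IgG library for 28 and from a depletion library for 7. Within the groups the order was also shared: the second anti-CTLA4 library was below the first for 32 of 35 members, and depletion library 1 was the lowest of its group for 29 of 35. Members with at least 1 FPKM numbered 34 and 34 in the IgG libraries, 22 and 14 in those labelled anti-CTLA4, and 26, 35 and 33 in the depletion libraries.

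**Figure D1:**
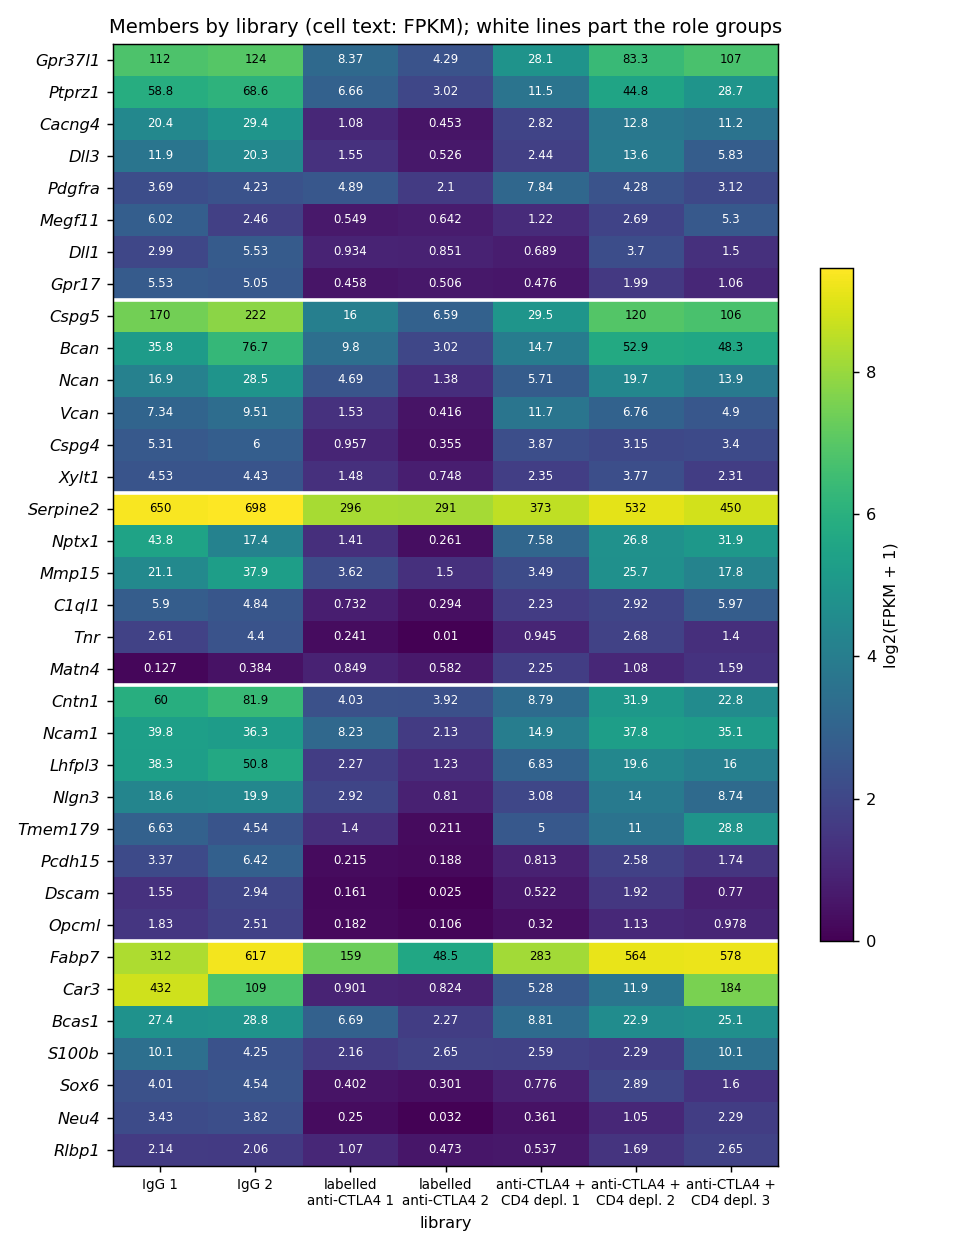
Each row is a member, each column a library, each number the FPKM value and the colour log2(FPKM + 1); white lines part the role groups. The darkest cell of a row lies in a column labelled anti-CTLA4 for 33 of 35 members. The exceptions are Matn4 (lowest with IgG) and Dll1 (lowest in depletion library 1). Depletion library 1 is the darkest of its group for 29.

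The first comparison asks what the antibody to CTLA4 changed against control IgG. By limma with Benjamini-Hochberg adjustment over all genes, 30 of 35 members were lower in the libraries labelled anti-CTLA4 and 0 were higher, against 28.8% and 9.29% of all genes tested. Without the 7 members chosen for their fall, 23 of 28 were lower. The median log2 difference was -2.25 over the members and -0.31 over all genes. For 33 of 35 members the 2 groups did not overlap and the anti-CTLA4 values were lower, against 54.1% of all genes, and for 1, Matn4, they did not overlap in the other direction, against 22.8%. The list was drawn up with this comparison known, so these counts describe it. The calls depended on which library was left out, while the median over the members stayed negative. By limma 0 members and 0 of all genes passed without IgG replicate 1 (29 members at an unadjusted p under 0.05, median -2.47) or without the second library labelled anti-CTLA4 (29 members, median -1.91), and 7 members passed without IgG replicate 2 (median -2.14). Without the first library labelled anti-CTLA4, however, 27 members passed.

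The next comparison asks what CD4 depletion changed among mice given anti-CTLA4, and it shares those libraries with the first. Here 20 of 35 members were higher with depletion and 0 were lower by limma, against 22.8% and 6.59% of all genes. Without the 3 members chosen for their rise, 17 of 32 were higher. These 32 still include Cspg5, Car3, Lhfpl3, Cacng4 and Cntn1, chosen for a fall in the same libraries labelled anti-CTLA4. That selection favoured a rise in this comparison, so its counts, here and by role below, are not free of it. The median log2 difference was 1.66 over the members and 0.27 over all genes, and for 29 of 35 members each depletion library exceeded both others, against 44.7% of all genes. By limma the count became 0 without the second library labelled anti-CTLA4 (14 at an unadjusted p under 0.05), 31 without depletion library 1, 6 without depletion library 2 and 7 without depletion library 3, with medians from 1.25 to 1.84 in these 4 settings. It was also 0 with a replicate block (22 at an unadjusted p under 0.05), 8 without the filter on low values and 31 with scaling to the homeostatic microglia genes.

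Depletion plus anti-CTLA4 was also set against IgG. By limma 0 of 35 members and 0% of all genes passed in either direction, with 14 members and 851 of 13028 genes at an unadjusted p under 0.05. Of those 14 members 13 were lower and 1, Matn4, was higher with depletion, the group through which alone it had passed the filter. The median log2 difference was -0.78 over the members and -0.04 over all genes. In 16 of 35 members each depletion library was below both IgG libraries, against 16.2% of all genes, and in 1 each was above, against 11%. In depletion libraries 1, 2 and 3, respectively, 4, 14 and 10 members lay within or above the range of the IgG libraries.

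**Figure D2:**
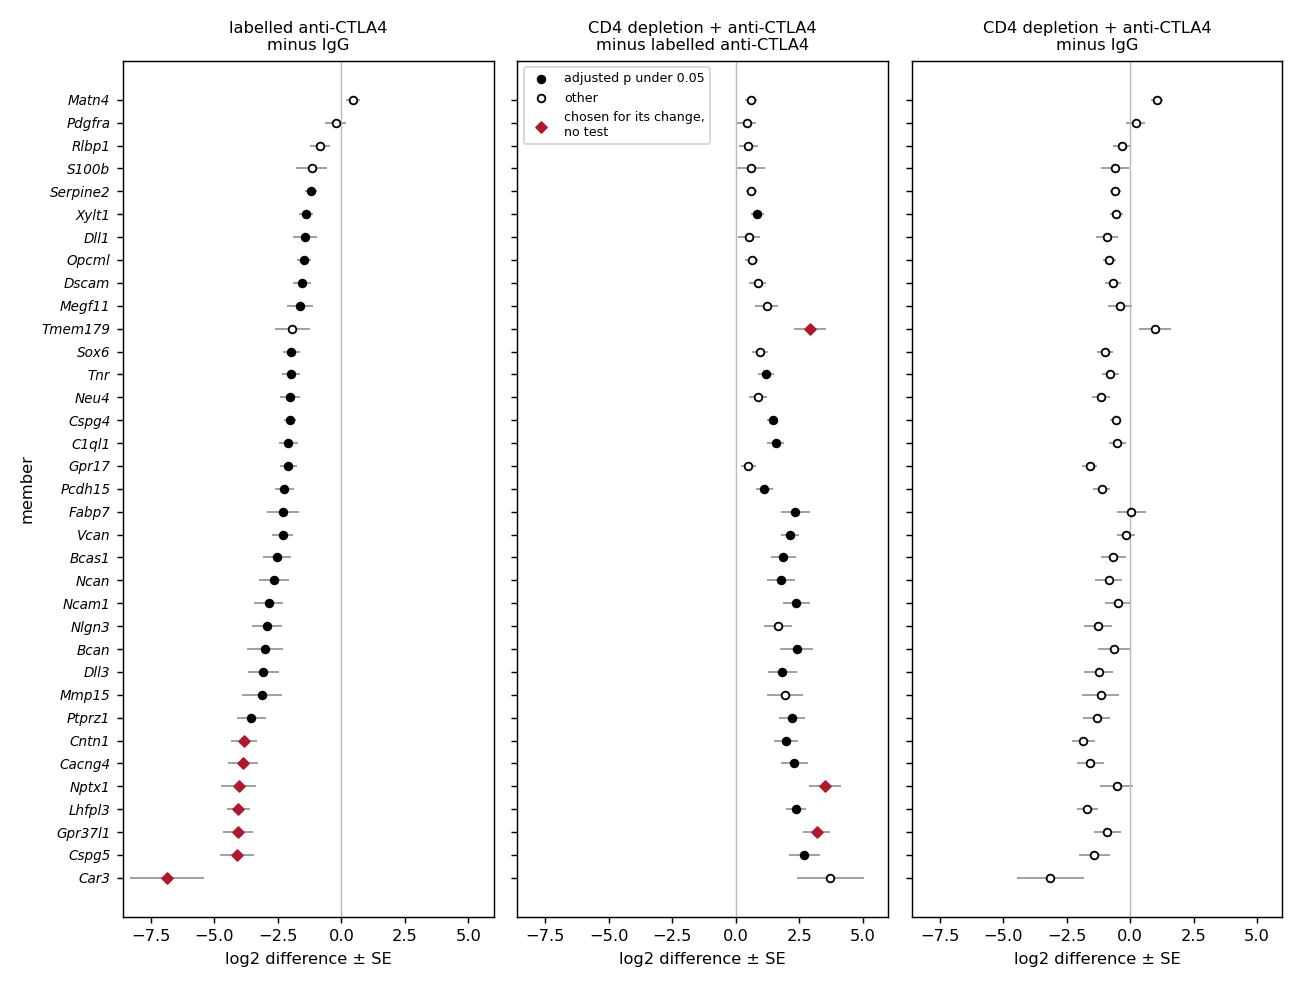
Log2 differences of log2(FPKM + 1) with standard errors from limma for the 35 members tested, one panel per comparison; filled circles have an adjusted p under 0.05, open circles do not, and diamonds are members chosen for their change, shown without a test. All members but Matn4 (at 0.45) lie left of 0 in the first panel, all lie right of 0 in the second, and no circle is filled in the third. In the second panel Cspg5, Car3, Lhfpl3, Cacng4 and Cntn1 keep circles, although low values in the libraries labelled anti-CTLA4 had selected them.

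Of the receptors and signalling surface proteins not chosen for the change in question, 5 of 6 were lower in the libraries labelled anti-CTLA4 by limma, against 28.8% of all genes, and 3 of 7 were higher with depletion than there, against 22.8%. The most abundant was Gpr37l1, an orphan G protein-coupled receptor of glia. Its level was 112 and 124 FPKM with IgG, 8.37 and 4.30 FPKM in the libraries labelled anti-CTLA4, and 28.1, 83.3 and 107 FPKM in the depletion libraries. The log2 differences were -4.08 (SE 0.58) against IgG and 3.19 (SE 0.53) for depletion against anti-CTLA4. Both are given without a test, because Gpr37l1 was chosen for them, and depletion library 3 came close to the IgG values while library 1 did not.

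Ptprz1 encodes a receptor tyrosine phosphatase that itself carries chondroitin sulfate and binds pleiotrophin and midkine. Its values were 58.8 and 68.6 FPKM with IgG, 6.66 and 3.02 FPKM in the libraries labelled anti-CTLA4, and 11.5, 44.8 and 28.7 FPKM with depletion, so that no group overlapped another. Ptprz1 fell against IgG (log2 difference -3.54, SE 0.57, limma adjusted p = 0.00995) and was higher with depletion than in the anti-CTLA4-labelled libraries (2.21, SE 0.52, limma adjusted p = 0.0233). Its secreted ligand Ptn did not pass, at 58.7 and 66.5 FPKM with IgG and 54.4 and 23.4 FPKM in the libraries labelled anti-CTLA4, and neither did Mdk. Cntn1 and Ncam1, adhesion proteins that bind Ptprz1, are members and are given below.

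Cacng4, an auxiliary subunit of AMPA-type glutamate receptors, was at 20.4 and 29.4 FPKM with IgG, 1.08 and 0.453 FPKM in the libraries labelled anti-CTLA4, and 2.82, 12.8 and 11.2 FPKM with depletion. It was among the members chosen for its fall (-3.88, SE 0.59). With depletion it was higher than in the libraries labelled anti-CTLA4 by 2.31 (SE 0.53), without a p-value because the low values there had selected it. All 3 depletion libraries were still below both IgG libraries.

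Gpr17, a G protein-coupled receptor that marks precursors on the way to becoming oligodendrocytes, stayed low with depletion. Its levels were 5.53 and 5.05 FPKM with IgG, 0.458 and 0.506 FPKM in the libraries labelled anti-CTLA4, and 0.476, 1.99 and 1.06 FPKM with depletion. Gpr17 fell against IgG by 2.08 on the log2 scale (SE 0.32, limma adjusted p = 0.00939). The difference between depletion and anti-CTLA4 was 0.49 (limma adjusted p = 0.223), and depletion library 1 lay between both libraries labelled anti-CTLA4. Depletion minus IgG was -1.59 (SE 0.29) and did not pass by limma (adjusted p = 0.710), although the groups did not overlap.

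The Notch ligands Dll1 and Dll3 and the cell-surface EGF-repeat protein Megf11 were each lower in both libraries labelled anti-CTLA4 than in both IgG libraries. For Dll3, which acts mainly inside the cell that makes it, the values were 11.9 and 20.3 FPKM with IgG, 1.55 and 0.526 FPKM in the libraries labelled anti-CTLA4, and 2.44, 13.6 and 5.83 FPKM with depletion. Dll3 fell against IgG (-3.07, SE 0.63, limma adjusted p = 0.0128) and was higher with depletion (1.83, SE 0.57, limma adjusted p = 0.0489). Dll1, an activating ligand, was at 2.99 and 5.53, then 0.934 and 0.851, then 0.689, 3.70 and 1.5 FPKM in the same order. Its fall passed (-1.43, SE 0.46, limma adjusted p = 0.0456), while depletion against anti-CTLA4 did not (0.52, limma adjusted p = 0.370), since depletion library 1 was below both libraries labelled anti-CTLA4. Megf11 was at 6.02 and 2.46, then 0.549 and 0.642, then 1.22, 2.69 and 5.30 FPKM, with a fall of -1.63 (SE 0.50, limma adjusted p = 0.0399) and a difference of 1.22 with depletion (limma adjusted p = 0.0806). Among 16 other genes of the Notch pathway 3 were lower against IgG (Jag1, Hey1 and Nrarp) and 3 were higher (Lfng, Mfng and Hes5), against 28.8% and 9.29% of all genes, with a median of -0.33.

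Pdgfra, whose product is the defining receptor of the lineage, did not follow the other members. It was at 3.69 and 4.23 FPKM with IgG, 4.89 and 2.10 FPKM in the libraries labelled anti-CTLA4, and 7.84, 4.28 and 3.12 FPKM with depletion. All 3 groups overlapped. The log2 difference between anti-CTLA4 and IgG was -0.21 (SE 0.41, limma adjusted p = 0.702), and it became 0.080 under median-of-ratios scaling, 0.14 under quantile normalisation and 0.25 without the second library labelled anti-CTLA4. Depletion minus anti-CTLA4 was 0.43 (limma adjusted p = 0.399) and -0.029 without that library. Its ratio to Cspg4 was 0.694 and 0.705 with IgG, 5.11 and 5.93 in the libraries labelled anti-CTLA4, and 2.03, 1.36 and 0.917 with depletion. Fibroblasts also express Pdgfra, and the 11 other fibroblast and meningeal genes tested were all higher against IgG by limma (median 3.47, against 9.29% of all genes called). Of these 11 genes 8 were lower with depletion than in the anti-CTLA4-labelled libraries, against 6.59% of all genes. Their part in the Pdgfra values was not tested. Of 5 other PDGF genes tested 2 were lower against IgG (Pdgfa and Pdgfc) and 1 was higher (Pdgfb), against 28.8% and 9.29% of all genes. The log2 difference was -0.55 for Pdgfa (limma adjusted p = 0.0390) and 1.18 for Pdgfb (limma adjusted p = 0.0196).

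**Figure D3:**
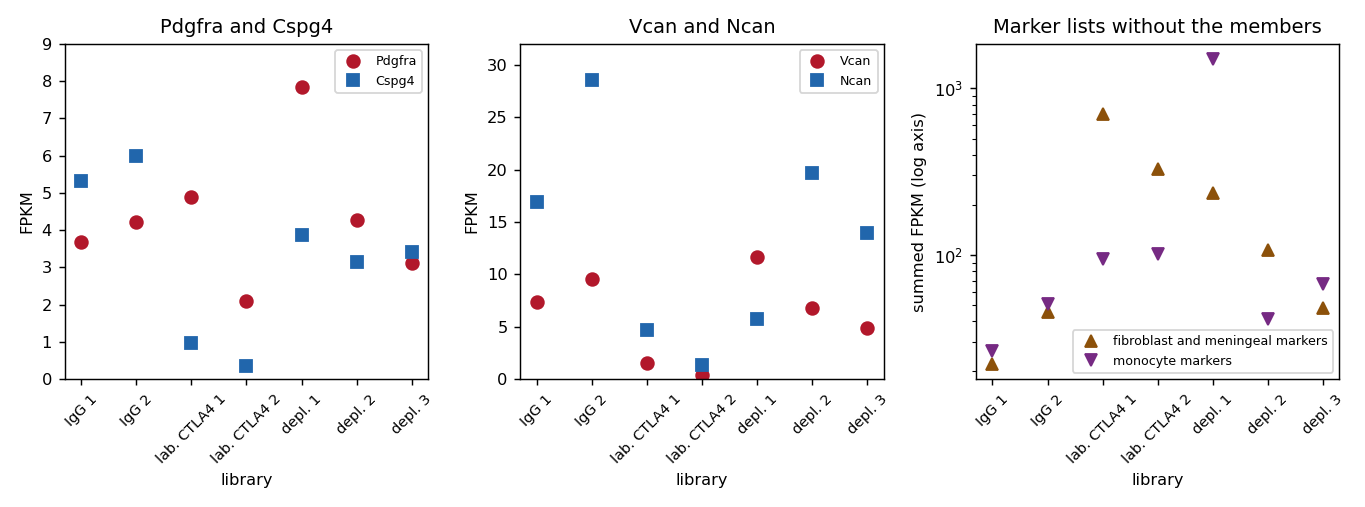
The first panel plots FPKM of Pdgfra and Cspg4 by library, the middle panel that of Vcan and Ncan, and the last the summed FPKM of fibroblast and monocyte markers without the members, on a log axis. Pdgfra and Vcan are both highest in depletion library 1, where monocyte markers sum to 1497 FPKM, while Cspg4 and Ncan are highest in IgG library 2.

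Of the proteoglycan genes other than Cspg5, 5 of 5 were lower in the libraries labelled anti-CTLA4 than with IgG by limma, against 28.8% of all genes. With depletion 6 of 6, Cspg5 included, were higher than in those libraries, against 22.8%, although low values there had selected Cspg5. Cspg5, which encodes neuroglycan C, a membrane proteoglycan of the brain, was the most abundant. It was at 170 and 222 FPKM with IgG, 16.0 and 6.59 FPKM in the libraries labelled anti-CTLA4, and 29.5, 120 and 106 FPKM with depletion. The mean was 196 ± 36.7 FPKM (SD, n = 2) with IgG, 11.3 ± 6.65 FPKM (n = 2) in the libraries labelled anti-CTLA4 and 85 ± 48.6 FPKM (n = 3) with depletion. Its log2 difference of -4.11 against IgG is given without a test. With depletion it was higher than in the libraries labelled anti-CTLA4 by 2.69 (SE 0.61), without a p-value for the same reason. Across the 7 libraries the ratio of Cspg5 to Ptprz1 stayed between 2.18 and 3.68.

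Cspg4, encoding NG2, was the other defining gene of the lineage in the list. It measured 5.31 and 6.00 FPKM with IgG, 0.957 and 0.355 FPKM in the libraries labelled anti-CTLA4, and 3.87, 3.15 and 3.40 FPKM with depletion. Its depletion libraries lay close together, with no drop in library 1. Cspg4 fell against IgG (-2.03, SE 0.23, limma adjusted p = 0.00936) and was higher with depletion (1.45, SE 0.21, limma adjusted p = 0.0120). Pericytes also express Cspg4, and of 9 other endothelial and mural genes tested 4 were higher against IgG and 0 lower (9.29% and 28.8% of all genes).

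The lecticans Bcan, Ncan and Vcan encode brevican, neurocan and versican, secreted proteoglycans that bind hyaluronan. Bcan was at 35.8 and 76.7 FPKM with IgG, 9.80 and 3.02 FPKM in the libraries labelled anti-CTLA4, and 14.7, 52.9 and 48.3 FPKM with depletion. Ncan was at 16.9 and 28.5, then 4.69 and 1.38, then 5.71, 19.7 and 13.9 FPKM. The ratio of Ncan to Bcan stayed between 0.288 and 0.478. Bcan fell by 3.02 on the log2 scale against IgG (SE 0.71, limma adjusted p = 0.0182) and Ncan fell by 2.64 (SE 0.59, limma adjusted p = 0.0160). With depletion the differences from anti-CTLA4 were 2.39 for Bcan (limma adjusted p = 0.0328) and 1.79 for Ncan (limma adjusted p = 0.0443).

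Vcan parted from them in 1 library. It was at 7.34 and 9.51 FPKM with IgG, 1.53 and 0.416 FPKM in the libraries labelled anti-CTLA4, and 11.7, 6.76 and 4.90 FPKM with depletion. The ratio of Vcan to Bcan was 0.796 in depletion library 1 and between 0.101 and 0.205 in the other 6 libraries. Depletion library 1 was also the one with monocyte markers at 1497 FPKM, and 12 of 12 listed monocyte genes, Vcan included, reached 1 FPKM there. Whether monocyte RNA contributed to Vcan was not tested. Vcan fell against IgG (-2.31, SE 0.41, limma adjusted p = 0.0106) and was higher with depletion (2.14, SE 0.37, limma adjusted p = 0.0137).

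Xylt1, the enzyme that attaches the first sugar of the chondroitin sulfate chain, was at 4.53 and 4.43 FPKM with IgG, 1.48 and 0.748 FPKM in the libraries labelled anti-CTLA4, and 2.35, 3.77 and 2.31 FPKM with depletion. It fell by 1.40 (SE 0.27, limma adjusted p = 0.0117) and was higher with depletion by 0.85 (SE 0.24, limma adjusted p = 0.0381). The other enzymes of chain synthesis did not move as one. Of 17 tested 5 were lower against IgG (Fam20b, Csgalnact1, Chpf, Chst11 and Ust) and 2 were higher (Chst14 and Chst15), shares near the 28.8% and 9.29% of all genes, with a median of -0.09. Chpf, a chain polymerising factor, had the highest mean of these and went from 35.0 and 32.7 FPKM with IgG to 11.6 and 3.80 FPKM in the libraries labelled anti-CTLA4. Of 6 tested partners of the lecticans in the matrix 3 were lower against IgG (28.8% of all genes), among them tenascin-C (Tnc, -2.33, limma adjusted p = 0.0118), and 4 were higher with depletion (22.8% of all genes).

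Of the other secreted and matrix genes tested, Nptx1 left aside because it was chosen for both changes, 4 of 5 were lower in the libraries labelled anti-CTLA4 by limma (28.8% of all genes) and 2 of 5 were higher with depletion than there (22.8%). Serpine2, which encodes protease nexin-1, an inhibitor of thrombin and urokinase, had the highest mean of all members and the smallest fall among those that passed. It was at 650 and 698 FPKM with IgG, 296 and 291 FPKM in the libraries labelled anti-CTLA4, and 373, 533 and 450.1 FPKM with depletion. The log2 difference was -1.20 (SE 0.24, limma adjusted p = 0.0124), and depletion minus anti-CTLA4 was 0.61 (limma adjusted p = 0.0706). Its group means were 674 ± 34.4, 293 ± 3.26 and 452 ± 80.0 FPKM (SD, n = 2, 2 and 3).

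Nptx1, a neuronal pentraxin that gathers glutamate receptors at synapses, was at 43.8 and 17.4 FPKM with IgG, 1.41 and 0.261 FPKM in the libraries labelled anti-CTLA4, and 7.58, 26.8 and 31.9 FPKM with depletion. Its log2 differences, -4.04 against IgG and 3.51 for depletion against anti-CTLA4, were the reason it was listed and have no test here. Mmp15, a membrane-anchored metalloproteinase, was at 21.1 and 37.9, then 3.62 and 1.5, then 3.49, 25.7 and 17.8 FPKM. Its fall passed (-3.11, SE 0.79, limma adjusted p = 0.0224), while depletion against anti-CTLA4 did not (1.95, limma adjusted p = 0.0767), with depletion library 1 between the anti-CTLA4 values.

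C1ql1, a secreted C1q-like protein that acts at synapses, and Tnr, the lectican-binding tenascin-R, passed in both comparisons. C1ql1 was at 5.90 and 4.84 FPKM with IgG, 0.732 and 0.294 FPKM in the libraries labelled anti-CTLA4, and 2.23, 2.92 and 5.97 FPKM with depletion, with log2 differences of -2.08 and 1.57 (limma adjusted p = 0.0106 and 0.0187). Tnr was at 2.61 and 4.40, then 0.241 and 0.01, then 0.945, 2.68 and 1.40 FPKM, with log2 differences of -1.98 and 1.20 (limma adjusted p = 0.0106 and 0.0307). Its lowest value stood for 4.83 implied reads, so the log2 difference of Tnr on the log2(FPKM + 1) scale understates a fold change.

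Matn4, a matrilin of the extracellular matrix, was the member that ran the other way. It was at 0.127 and 0.384 FPKM with IgG, 0.849 and 0.582 FPKM in the libraries labelled anti-CTLA4, and 2.25, 1.08 and 1.59 FPKM with depletion, with no overlap between any of the groups. Matn4 passed the filter only through the depletion libraries, so the filter itself favoured its being highest there. None of its differences passed by limma: 0.45 against IgG (adjusted p = 0.207), 0.60 for depletion against anti-CTLA4 (adjusted p = 0.0964) and 1.06 for depletion against IgG (adjusted p = 0.710). Luzp2, not tested, was between 0.072 and 0.561 FPKM in the 7 libraries.

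Of the adhesion and synaptic membrane genes not chosen for the change in question, 5 of 6 were lower in the libraries labelled anti-CTLA4 by limma (28.8% of all genes) and 4 of 7 were higher with depletion than there (22.8%). Cntn1, a contactin anchored by a lipid, was at 60.0 and 81.9 FPKM with IgG, 4.03 and 3.92 FPKM in the libraries labelled anti-CTLA4, and 8.79, 31.9 and 22.8 FPKM with depletion. Ncam1, the neural cell adhesion molecule, was at 39.8 and 36.3, then 8.23 and 2.13, then 14.9, 37.8 and 35.1 FPKM. Thus depletion libraries 2 and 3 were near the IgG level for Ncam1 and below both IgG libraries for Cntn1. Cntn1 was listed for its log2 difference of -3.84 against IgG. With depletion it was higher than in the libraries labelled anti-CTLA4 by 1.99 (SE 0.46), without a p-value because the low values there had selected it. Ncam1 fell by 2.86 (SE 0.57, limma adjusted p = 0.0124) and was higher with depletion by 2.39 (SE 0.52, limma adjusted p = 0.0195).

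Lhfpl3, a small protein that spans the membrane several times, was at 38.3 and 50.8 FPKM with IgG, 2.27 and 1.23 FPKM in the libraries labelled anti-CTLA4, and 6.83, 19.6 and 16.0 FPKM with depletion. It was listed for its log2 difference of -4.06 against IgG. With depletion Lhfpl3 was higher than in the libraries labelled anti-CTLA4 by 2.37 (SE 0.41), again without a p-value because of that selection. Nlgn3, a neuroligin of the postsynaptic membrane, was at 18.6 and 19.9, then 2.92 and 0.810, then 3.08, 14.0 and 8.74 FPKM. It fell by 2.93 (SE 0.60, limma adjusted p = 0.0128), and depletion minus anti-CTLA4 was 1.66 (limma adjusted p = 0.0554). The other 4 neuroligins and neurexins tested were lower against IgG in 4 of 4 and higher with depletion in 4 of 4 by limma (28.8% and 22.8% of all genes).

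Pcdh15, a protocadherin best known from the inner ear, was at 3.37 and 6.42 FPKM with IgG, 0.215 and 0.188 FPKM in the libraries labelled anti-CTLA4, and 0.813, 2.58 and 1.74 FPKM with depletion, and passed in both comparisons (-2.25 and 1.12, limma adjusted p = 0.00995 and 0.0443). Dscam, a homophilic adhesion molecule, was at 1.55 and 2.94, then 0.161 and 0.025, then 0.522, 1.92 and 0.770 FPKM. Opcml, a lipid-anchored adhesion molecule, was at 1.83 and 2.51, then 0.182 and 0.106, then 0.320, 1.13 and 0.978 FPKM. Both were lower against IgG by limma (-1.54 and -1.46), and neither passed for depletion against anti-CTLA4 (0.87 and 0.63). Tmem179, a membrane protein, was at 6.63 and 4.54 FPKM with IgG, 1.40 and 0.211 FPKM in the libraries labelled anti-CTLA4, and 5, 11 and 28.8 FPKM with depletion. Its depletion values were all above the lower IgG value and those of libraries 2 and 3 above both. The difference against IgG did not pass (-1.93, limma adjusted p = 0.0597), and the one between depletion and anti-CTLA4, 2.92, is given without a test.

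Among the intracellular genes other than Car3, 4 of 6 were lower in the libraries labelled anti-CTLA4 by limma (28.8% of all genes). With depletion 2 of 7 were higher than there, a share near the 22.8% of all genes. Fabp7, the fatty acid-binding protein of neural progenitors and astrocytes, was at 312 and 617 FPKM with IgG, 159 and 48.5 FPKM in the libraries labelled anti-CTLA4, and 283, 564 and 578 FPKM with depletion. The depletion mean (475 ± 167 FPKM, SD, n = 3) was close to the IgG mean (465 ± 215 FPKM, n = 2). Fabp7 fell by 2.31 against IgG (SE 0.62, limma adjusted p = 0.0262) and was higher with depletion by 2.35 (SE 0.56, limma adjusted p = 0.0248). Bcas1, a marker of oligodendrocytes that begin to make myelin, was at 27.4 and 28.8, then 6.69 and 2.27, then 8.81, 22.9 and 25.1 FPKM, and passed in both (-2.54 and 1.87, limma adjusted p = 0.0139 and 0.0305).

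Sox6, a transcription factor that holds precursors undifferentiated, was at 4.01 and 4.54 FPKM with IgG, 0.402 and 0.301 FPKM in the libraries labelled anti-CTLA4, and 0.776, 2.89 and 1.60 FPKM with depletion. Neu4, a sialidase, was at 3.43 and 3.82, then 0.250 and 0.032, then 0.361, 1.05 and 2.29 FPKM. Both fell against IgG (-1.96 and -2.02, limma adjusted p = 0.0106 and 0.0117). With depletion Sox6 was at 0.96 (limma adjusted p = 0.0571) and Neu4 at 0.88 on the log2 scale above anti-CTLA4, and neither passed.

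Car3, a cytosolic carbonic anhydrase, differed widely between libraries. It was at 432 and 109 FPKM with IgG, 0.901 and 0.824 FPKM in the libraries labelled anti-CTLA4, and 5.28, 11.9 and 184 FPKM with depletion. The difference of -6.87 (SE 1.44) against IgG has no test here. Depletion minus anti-CTLA4 was 3.73, without a p-value because it shares the low values that selected Car3. S100b, a calcium-binding protein of glia, was at 10.1 and 4.25, then 2.16 and 2.65, then 2.59, 2.29 and 10.1 FPKM, so that 1 depletion library reached the higher IgG value while the other two lay with the libraries labelled anti-CTLA4. Rlbp1, a retinaldehyde-binding protein, was at 2.14 and 2.06, then 1.07 and 0.473, then 0.537, 1.69 and 2.65 FPKM. Neither passed against IgG (S100b -1.17, limma adjusted p = 0.161, and Rlbp1 -0.83, limma adjusted p = 0.133).

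A second pattern ran inside the groups, and it was chosen after the values were seen. S100b, Car3, Nptx1, Megf11, C1ql1, Tmem179 and Rlbp1 were higher in IgG library 1 than in IgG library 2, and also higher in depletion library 3 than in depletion library 2. For S100b the ratio was 2.37 between the IgG libraries and 4.43 between the depletion libraries, and for Megf11 it was 2.44 and 1.97. Another 19 members were higher in IgG library 2 and in depletion library 2, among them Dll3 (ratios of 0.585 and 0.428) and Dll1 (0.541 and 0.405). In all 26 of 35 members (74.3%) went the same way in both pairs, against 49.2% of all genes tested.

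**Figure D4:**
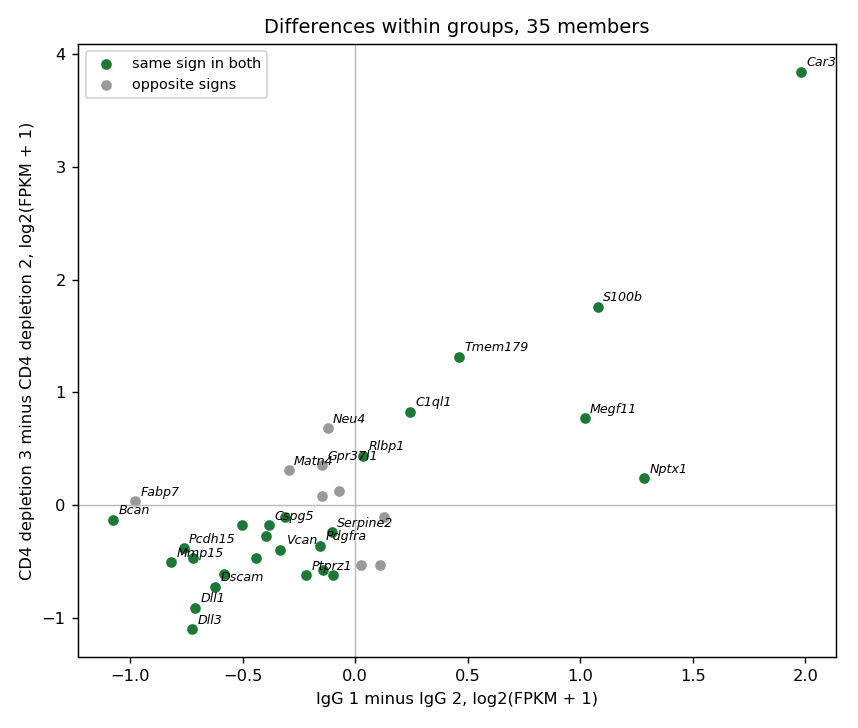
Each point is a member, placed by IgG library 1 minus IgG library 2 on the horizontal axis and depletion library 3 minus depletion library 2 on the vertical axis, both in log2(FPKM + 1). The 7 members at the upper right, Car3 and S100b farthest out, were higher in IgG 1 and depletion 3, and the 19 at the lower left were lower in both.

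How far each member followed the rest was described by its correlation over the 7 libraries with the mean of the other members, all of which share the libraries. It was 0.998 for Cspg5, 0.991 for Cacng4 and 0.990 for Ptprz1, and the lowest were 0.78 for Vcan, 0.75 for Tmem179, 0.60 for S100b, 0.12 for Pdgfra and -0.23 for Matn4. Among 7580 other genes with a mean of at least 5 FPKM, those most like the mean of the members over the 7 libraries were Tmem9, Tcf4, Ss18l2, Fzd9, Slc25a4, Mtss1l, Npdc1 and Nap1l5, with Pearson correlations from 0.996 to 0.999. Fzd9, a Wnt receptor, ran from 23.5 and 29.5 FPKM with IgG to 2.40 and 0.453 FPKM in the libraries labelled anti-CTLA4 and 5.31, 14.7 and 16.7 FPKM with depletion. A correlation does not measure the size of a change. Tmem9, with the highest correlation, fell less, from 69.5 and 70.4 FPKM with IgG to 27.1 and 20.7 FPKM in the libraries labelled anti-CTLA4.

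Transcription factors of the lineage showed the same order. Of 11 tested 11 were lower against IgG and 9 were higher with depletion than in the anti-CTLA4-labelled libraries, by limma, against 28.8% and 22.8% of all genes, with medians of -2.37 and 1.54. Olig1, a basic helix-loop-helix factor of the lineage, was at 297 and 440 FPKM with IgG, 38.3 and 13.8 FPKM in the libraries labelled anti-CTLA4, and 73.0, 270 and 159 FPKM with depletion. Genes of mature oligodendrocytes did not: of 11 myelin genes 0 were lower and 2 were higher against IgG by limma (28.8% and 9.29% of all genes), with a median of 0.80. Mag, an adhesion protein of myelin and one of these 2, was at 6.96 and 4.61 FPKM with IgG, 14.2 and 10.6 FPKM in the libraries labelled anti-CTLA4, and 5.22, 8.80 and 4.22 FPKM with depletion. Cnp, with the highest mean of the list, went the other way and did not pass (-0.50, limma adjusted p = 0.160). It was at 64.2 and 67.2 FPKM with IgG and at 51.4 and 41.6 FPKM in the libraries labelled anti-CTLA4. Of 11 astrocyte genes 4 were lower against IgG and 3 were higher with depletion, shares near those of all genes. Their medians, -1.16 and 0.82, went further in the members' directions than those of all genes, -0.31 and 0.27. Of 15 homeostatic microglia genes 0 were lower and 3 were higher against IgG (Csf1r among them), against 28.8% and 9.29% of all genes, with a median of 0.83. Of 15 cell cycle genes 8 were lower against IgG and 11 were higher with depletion than in the anti-CTLA4-labelled libraries, against the same 28.8% and 22.8%. Their median level was 104%, 124% and 113% of the IgG mean in the depletion libraries, where the members were at 24.7%, 76.3% and 60.3%. What cell cycle and homeostatic genes had to do with the members' values was not tested.

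**Figure D5:**
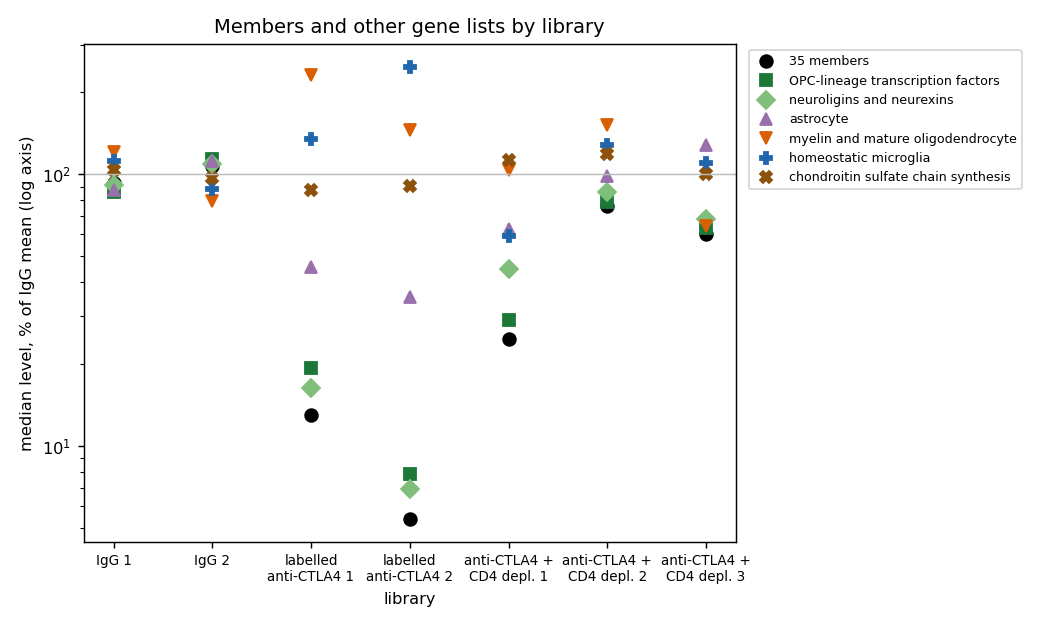
For each library the median level of a gene list is plotted as a percentage of each gene's IgG mean, on a log axis, with the members left out of the other lists. Members, lineage transcription factors and neuroligins with neurexins fall to between 5.37% and 19.3% in the libraries labelled anti-CTLA4, while myelin genes stay above 100% there.

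The 250 bases before the start site were searched for short sequences that factors of the OLIG and SOX families are known to bind, using RefSeq promoters of build GRCm38.p6 matched to 25 of 36 members. The E-boxes CAGCTG and CAGATG and the SOX sequences ACAAAG and ACAATG were searched on both strands. Either E-box was present in 8 of 25 members (32%) and in 25.5% of 32851 promoters, and either SOX sequence in 4 of 25 (16%) and in 25.2%. A match is a description of letters and not of binding. The promoters of 4 members with an E-box, each lower against IgG, are shown 5′ to 3′ on the gene's own strand, with the E-box in capitals. Dll3 lies on the minus strand at chr7:28301786-28302035 with its E-box starting 7 bases before the start site, and Ncan on the minus strand at chr8:70120845-70121094 with one 58 bases before. Fabp7 lies on the plus strand at chr10:57784673-57784922 with one 118 bases before, read as CAGATG on the other strand, and Lhfpl3 on the plus strand at chr5:22745804-22746053 with a pair at 158 and 149 bases. The start site used for Lhfpl3 lay 139 bases before the start of its row of measured expression, so the pair is farther from the latter.
Dll3: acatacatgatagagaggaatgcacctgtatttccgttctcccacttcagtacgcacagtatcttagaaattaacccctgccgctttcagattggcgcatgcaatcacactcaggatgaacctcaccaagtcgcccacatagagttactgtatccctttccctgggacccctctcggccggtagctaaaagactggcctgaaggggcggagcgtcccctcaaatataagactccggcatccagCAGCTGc
Ncan: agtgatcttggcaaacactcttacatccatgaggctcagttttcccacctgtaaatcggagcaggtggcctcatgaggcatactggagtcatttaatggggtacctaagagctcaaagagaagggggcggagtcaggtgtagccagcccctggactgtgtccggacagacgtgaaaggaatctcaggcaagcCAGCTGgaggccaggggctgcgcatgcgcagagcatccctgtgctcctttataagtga
Fabp7: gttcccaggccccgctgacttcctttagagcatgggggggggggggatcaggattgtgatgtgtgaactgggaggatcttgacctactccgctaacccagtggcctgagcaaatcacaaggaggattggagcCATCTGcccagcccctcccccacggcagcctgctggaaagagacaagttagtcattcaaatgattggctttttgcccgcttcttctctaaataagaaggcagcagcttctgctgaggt
Lhfpl3: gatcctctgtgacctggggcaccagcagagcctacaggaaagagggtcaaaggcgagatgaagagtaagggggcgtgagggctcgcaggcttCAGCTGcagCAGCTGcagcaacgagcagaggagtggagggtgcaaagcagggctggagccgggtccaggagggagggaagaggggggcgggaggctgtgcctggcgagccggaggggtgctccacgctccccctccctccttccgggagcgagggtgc

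Some values could include reads of an overlapping gene, on the same strand (as for Nlgn3) or, because both strands were counted, on the other. In GENCODE vM21, 82.3% of the exon bases of Nlgn3 are shared with Gm21986, 14.8% of Dll1 with A930024N18Rik, 14.1% of Lhfpl3 with A930003O13Rik, 12.6% of Bcas1 with its antisense genes and 10.1% of Ncam1 with Gm11149. These cannot be told apart from their partners over the shared bases. For the other members the share was at most 3.62%.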

How the data were processed

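The deposited file held FPKM values per gene that the authors made, per the file headers, with HOMER analyzeRepeats on exons of mm10 with genes condensed and both strands counted. STAR, HOMER and DESeq2 are named in the submitters' processing notes, and their versions are not given in the sources used here. Columns were matched to samples by name. FPKM steps implied whole reads (100% of 272 to 304 low values per library within 0.1 of a whole read), with between 49687500 and 61644000 reads in genes.

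From the deposited FPKM, log2(FPKM + 1) was computed and tested with limma 3.58.1 (R 4.3.3), with a trend, over 13028 genes with at least 1 FPKM in 2 or more libraries. All 7 libraries entered 1 fit without a replicate block. Tests were two-sided and adjusted by Benjamini-Hochberg, and 0.05 was the threshold. For 1 gene, exact permutation cannot go below p = 0.333 for 2 against 2 libraries or 0.2 for 2 against 3. Fold changes on the log2(FPKM + 1) scale understate changes of low genes. The script was tested on simulated data.

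The members and the gene lists were chosen with earlier results of these data known. Every member is named, with its values in every library where its mean is at least 1 FPKM. Of each other list, the genes named with values are among the 4 with the highest mean, and genes most like the members are the 8 with the highest correlation. Alternatives were another pseudocount (0.1), no filter, other scalings, other fits, the replicate block and leaving out each library.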

Additional observations from a re-analysis of the deposited data

How the results depend on the processing

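For anti-CTLA4 against IgG, the count of members lower by limma was 0 to 32 when 1 library was left out, and the median log2 difference -2.47 to -1.91. The median was -3.24 with a pseudocount of 0.1. For depletion against anti-CTLA4, the count higher was 0 to 31 and the median 1.25 to 2.00 when 1 library was left out. That count was 8 without the filter and 31 with scaling to the homeostatic list, and the median was 2.36 with a pseudocount of 0.1 and 2.15 with homeostatic scaling. The cause was not tested. For depletion against IgG 0 members passed in each setting, with medians of -0.99 to -0.47.

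Median-of-ratios scaling moved the median of all genes against IgG from -0.31 to -0.01, and split the calls into 2045 lower and 2147 higher in place of 3747 and 1210, with 28 members lower. Pdgfra changed sign against IgG (0.080 with that scaling, 0.14 with quantile normalisation, -0.67 to 0.25 with 1 library left out) and for depletion against anti-CTLA4 (-0.029 to 0.90). Over 62 single-gene results and 958 alternatives, 733 kept direction and call, 181 lost the call, 40 gained it and 4 changed sign.

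Deviations of same-numbered libraries from their group means correlated with r from -0.205 to 0.123. In a group of 2 libraries these deviations mirror each other, so the values cannot decide whether the numbers pair libraries. With a replicate block 28 members were lower against IgG, and 0 were higher with depletion (22 at an unadjusted p under 0.05). A crossed block, chosen after seeing the data, gave 32 lower against IgG.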
